A study of Homo sapiens with 10 samples.

Results

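CDX1, CDX2, HNF4A, GATA6, KLF5, ELF3, FOXA2 and SOX9, transcription factors that set and maintain intestinal epithelial identity, were followed through mRNA sequencing of LS180 cells, an established human colorectal cancer line. They were taken by exact gene symbol from the deposited table of 58870 genes, and all 8 were found and passed the filter on low counts. The cells carried CRISPR interference, in which a guide RNA directs an inactive Cas9 to a gene and blocks its transcription. Stable lines NTC1 and NTC2 held non-targeting guides, and stable lines sg1, sg2 and sg3 held guides against RNASE1, a secreted ribonuclease. All 5 lines, controls included, are LS180 derivatives with the interference machinery, grown in serum-containing medium with no drug. Each line gave 1 library lettered A and 1 lettered B, so there were 4 NTC libraries and 6 guide libraries. The labels do not say whether A and B are separate cultures or only separate preparations, nor whether a line is 1 clone, so every p-value here reflects only the variation among these libraries, part of which may be technical.

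The CDX proteins are caudal-type homeobox factors that specify the hindgut, and CDX2 remains a standard marker of intestinal and colorectal epithelium in the adult. HNF4A, a nuclear receptor, acts with them at enterocyte genes, GATA6 is a zinc finger factor of endoderm, and FOXA2 is a pioneer factor that opens endodermal chromatin. KLF5 and SOX9 are known from the proliferating crypt compartment, and ELF3 is an epithelium-specific ETS factor linked to differentiation.

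The libraries held between 39026605 and 45050991 counts each, with 15450 to 15830 genes detected at 10 counts or more. RNASE1 checked the labels: it was at 16.4 to 23.7 CPM (counts scaled to a common depth with the TMM method) in the 4 NTC libraries and at 1.02 to 3.75 CPM in the 6 guide libraries, with no overlap. Markers of colorectal epithelium matched the stated cell type, with 8 of 8 at 1 CPM or more, among them EPCAM at a mean of 921 CPM and CDH17 at 265 CPM. Of the endothelial, embryonic kidney and liver markers, 0 of 5, 0 of 6 and 0 of 4 reached 1 CPM. Of the leukocyte markers 2 of 6 did, LYZ at 34.2 CPM and CD68 at 8.39 CPM, while PTPRC had 0 counts. Of the fibroblast markers 3 of 8 did, the highest being COL3A1 at 1.85 CPM. All fibroblast markers together summed to 3.94 to 5.15 CPM in NTC libraries and 4.19 to 5.58 CPM in guide libraries.

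HNF4A (ENSG00000101076, GRCh38 chromosome 20, 44355700 to 44434596, plus strand) is transcribed from alternative promoters, the downstream one being the better known in liver and both being used in the gut. The gene has 6 annotated transcript starts, and the deposited gene-level counts do not separate them. The 250 bases before each of the 2 starts that RefSeq lists (GRCh38.p14, plus strand) are shown because HNF4A is among the factors that differed between library letters. Windows were also at hand for ELF3, CDX2, KLF5 and GATA6, and are not shown. Capitals mark every match, on either strand, to the GATA motif AGATAA, to GGGCGG, the box of KLF and SP factors, and to the CACCC box, which KLF factors also bind; no matches overlapped.
Upstream start, chr20:44355449-44355698: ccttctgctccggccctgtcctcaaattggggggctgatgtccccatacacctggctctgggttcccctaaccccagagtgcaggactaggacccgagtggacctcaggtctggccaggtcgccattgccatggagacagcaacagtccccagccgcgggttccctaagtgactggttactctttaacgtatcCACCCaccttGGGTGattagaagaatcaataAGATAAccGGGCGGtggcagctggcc
Downstream start, chr20:44400989-44401238: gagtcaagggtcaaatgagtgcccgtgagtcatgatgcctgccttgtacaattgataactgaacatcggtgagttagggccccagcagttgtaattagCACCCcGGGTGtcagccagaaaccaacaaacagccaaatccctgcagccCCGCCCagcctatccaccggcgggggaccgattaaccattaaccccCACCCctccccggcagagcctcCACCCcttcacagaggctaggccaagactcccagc
The upstream window held AGATAA at -26 relative to the start, GGGCGG at -18, and CACCC at -57 and, on the reverse strand, at -47. The downstream window held GGGCGG on the reverse strand at -103, and CACCC at -152, -57 and -35 and, reversed, at -146. These letters are common: AGATAA occurred in 9.17% of the 35116 RefSeq promoter windows of this length, GGGCGG in 42.6% and CACCC in 54.7%. Neither window held the CDX core TTTATG (9.64% of windows), the FOX motif TGTTTAC (2.98%), the SOX motif ACAAAG (13.7%) or the HNF4 core CAAAGTCCA (0.325%). The match is to letters alone and was not tested as binding.

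Corrected for exon length, the factors spanned a wide range of levels, and their order was the same in every library. CDX1 (chromosome 5, 150166795 to 150184558, plus strand) was the most abundant per kilobase, at 129.54 ± 6.08 CPM per kb (SD, n = 10 libraries), and ranked at the 98.2 percentile of 16373 genes with a length. SOX9 (chromosome 17, 72121020 to 72126420, plus strand) followed at 98.3 ± 5.39 CPM per kb, and KLF5 (chromosome 13, 73054976 to 73077542, plus strand) at 76.9 ± 3.49 CPM per kb. CDX2 (chromosome 13, 27962137 to 27971139, minus strand) stood at 38.3 ± 2.65 CPM per kb, under its paralog CDX1. Without the length correction their means were closer, at 158 CPM for CDX2 and 228 CPM for CDX1. HNF4A stood at 24.8 ± 1.72 CPM per kb and GATA6 (chromosome 18, 22169443 to 22202528, plus strand) at 16.2 ± 0.435 CPM per kb. ELF3 (chromosome 1, 202007945 to 202017188, plus strand) reached 9.76 ± 1.24 CPM per kb and FOXA2 (chromosome 20, 22581005 to 22585455, minus strand) 4.88 ± 0.276 CPM per kb, the 56.4 percentile. No neighbours in this order overlapped: the lowest CDX1 library, at 120.3 CPM per kb, was above the highest SOX9 library, at 107.7 CPM per kb, and the lowest ELF3 library, at 8.13, was above the highest FOXA2 library, at 5.29. Length here is the union of all annotated exons, 7311 bases for HNF4A and 7191 for ELF3, which understates the level of a gene that uses only some of them. The order depends on this length. In mean CPM without it, SOX9 (387) and KLF5 (299) were above CDX1, HNF4A (181) above CDX2, and ELF3 (70.2) above GATA6 (64.0).

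Between libraries, GATA6 varied least and ELF3 most. GATA6 ranged from 61.4 to 66.0 CPM, a 1.07-fold span, which put it at the 2.96 percentile of spread among 9527 genes at 10 CPM or more. ELF3 ranged from 58.5 to 82.9 CPM, a 1.42-fold span at the 94.4 percentile. The spans of the other 6 factors lay between the 36.7 percentile for KLF5 and the 61.4 percentile for SOX9. These spans include the difference between letters. With each letter's mean removed, the SD of ELF3 was at the 75.9 percentile and that of FOXA2 at the 74.1. KLF5 was then at the 56.4 percentile, SOX9 at 44.3, CDX1 at 40.1, HNF4A at 26.0, CDX2 at 22.1 and GATA6 at 10.8.

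**Figure D1:**
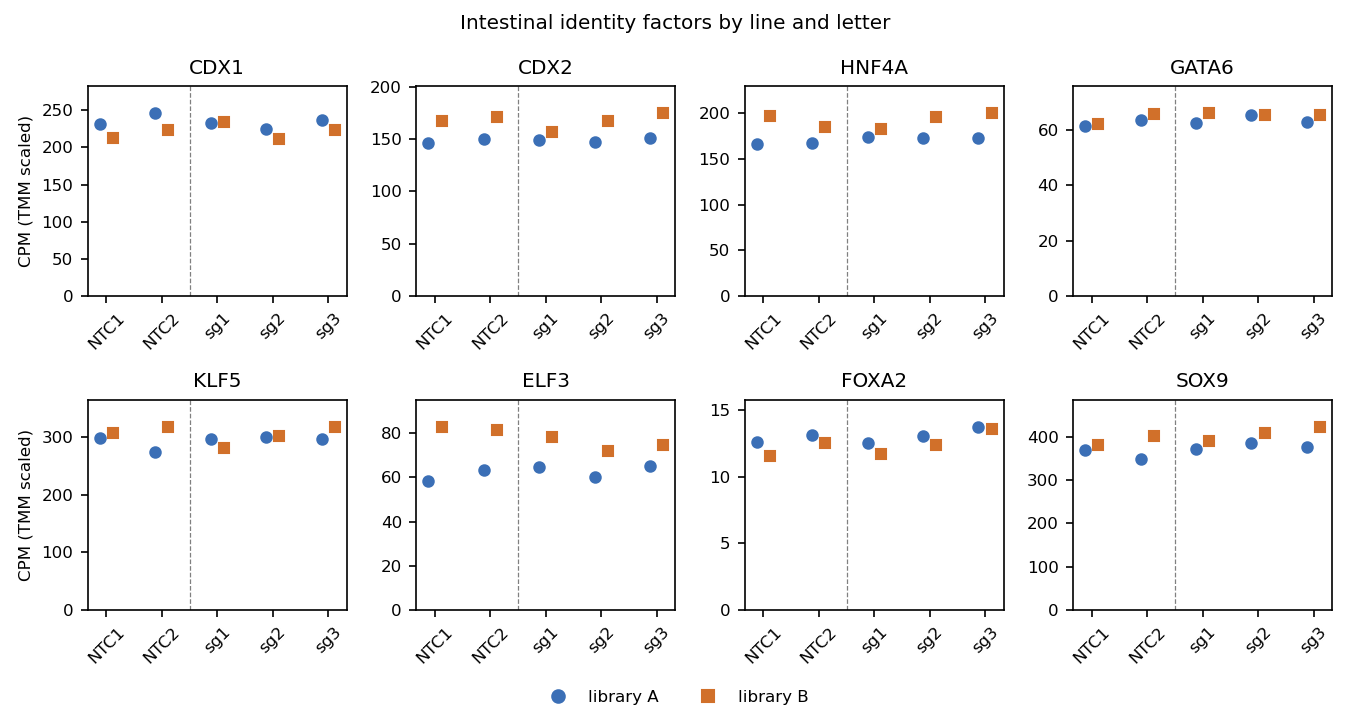
Level of each factor (vertical axis, TMM-scaled CPM, starting at 0) in the A library (circle) and B library (square) of each line, with NTC lines left of the dashed line and guide lines right of it. ELF3, CDX2 and HNF4A have every square above every circle, while for every factor single guide libraries overlap with NTC libraries.

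The first comparison asks whether these factors held their level when RNASE1 was repressed. Of the 8, 0 passed the test between 3 guide lines and 2 NTC lines (edgeR quasi-likelihood test on counts summed per line, Benjamini-Hochberg adjusted p over 17337 genes, threshold 0.05), where 0.0231% of all tested genes passed (0.0173% higher in guide lines and 0.00577% lower). With so few calls over all genes, the absence of a call says little about 8 of them, and the intervals of the differences are given instead. DESeq2 also called 0, giving FOXA2 no adjusted p, and 1 of 8 had an unadjusted p under 0.05, against 7.99% of all genes. In the same fit RNASE1 had a log2 difference of -3.26 (SE 0.23, adjusted p 8.249e-05). These are bulk samples, so fewer cells of a type and less RNA per cell cannot be told apart in this or any later comparison.

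Among the hindgut factors, CDX1 was at 222 CPM in NTC1 and 234 CPM in NTC2, and at 234, 218 and 230.4 CPM in sg1, sg2 and sg3. The guide lines lay on both sides of the NTC lines, and the fitted log2 difference was 0.00 (SE 0.03, adjusted p 0.993). CDX2 was at 157 and 159.9 CPM in NTC1 and NTC2 and at 153, 157 and 162 CPM in the guide lines, a log2 difference of -0.01 (SE 0.03, adjusted p 0.971). HNF4A was at 182 and 176 CPM in the NTC lines and at 178, 184 and 186 CPM in the guide lines, a log2 difference of 0.03 (SE 0.03, adjusted p 0.851). For all 3 the 95% interval of the guide-to-NTC ratio lay between 0.948 and 1.07.

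The endoderm factor GATA6 was at 61.7 and 64.6 CPM in the NTC lines and between 64.1 and 65.4 CPM in the guide lines, a log2 difference of 0.03 (SE 0.03, adjusted p 0.845). For FOXA2 the NTC lines averaged 12.5 ± 0.555 CPM (SD, n = 2) and the guide lines 12.9 ± 0.785 CPM (SD, n = 3); its ratio had the widest interval of the 8, from 0.940 to 1.135. KLF5 averaged 299 CPM in both arms, with SD 4.91 in the NTC lines and 8.94 in the guide lines. ELF3 averaged 71.8 ± 0.895 CPM in the NTC lines and 69.1 ± 2.91 CPM in the guide lines, a log2 difference of -0.05 (SE 0.04, adjusted p 0.747).

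SOX9, an HMG-box factor of crypt base cells, came closest to a difference. It was at 377 and 376.5 CPM in NTC1 and NTC2 and at 382, 398 and 401 CPM in sg1, sg2 and sg3, so the guide lines all lay above the NTC lines, as did those of 12.6% of tested genes (11.9% had them all below). The log2 difference was 0.06 (SE 0.03), with an unadjusted p of 0.0439 and an adjusted p of 0.613 in edgeR. The 95% interval of its ratio ran from 1.001 to 1.091. Leaving out the A library of NTC2 moved the log2 difference to 0.01, and leaving out the B library moved it to 0.11. Both fits left NTC2 with a single letter and had no letter term. These 2 values therefore include the letter difference of SOX9 in NTC2, a log2 ratio of B to A of 0.20. Measured against a bound of 1.1-fold in either direction, 7 of the 8 factors had their whole interval inside it, with FOXA2 outside, and 67.5% of the 9527 genes at 10 CPM or more did. SOX9's interval lay inside that bound but did not include 1.

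Within a letter, 2 factors separated the arms in the A libraries and 1 in the B libraries. In the A libraries HNF4A was at 166 to 168 CPM in the NTC lines and 173 to 174 CPM in the guide lines, and SOX9 at 350.2 to 371 CPM and 373 to 387 CPM. Guide libraries all above NTC libraries occurred for 13.7% of 16411 genes under letter A, and all below for 12.3%. In the B libraries ELF3 was at 81.5 to 82.9 CPM in the NTC lines and 72.0 to 78.4 CPM in the guide lines, an order shared by 11.1% of genes, with 11.3% showing the opposite one. ELF3 overlapped between arms under A, as HNF4A and SOX9 did under B. Over both letters, no factor had all 6 guide libraries above or below all 4 NTC libraries, as 0.506% and 0.408% of genes did.

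Taken 1 guide at a time, the factors again showed no call: 0 of 8 passed for sg1, sg2 or sg3 against the NTC lines, where 0.00609% of 16411 genes, RNASE1 alone, passed for each guide. This fit has 5 line means and no term for the letter, so the letter difference enters its spread. None of the 8 had an unadjusted p under 0.05 in edgeR for any guide, against 2.3%, 1.82% and 2.16% of all genes, and DESeq2 called none of them. With the letter as a replicate block, 0 of 8 were called for any guide and 6, 2 and 6 genes were called in all for sg1, sg2 and sg3. RNASE1 itself fell by 4.10 in sg1, 2.53 in sg2 and 3.67 in sg3 on the log2 scale; the sg2 call was lost without that line's A library. The factors' log2 differences ran from -0.05 to 0.03 in sg1, from -0.12 (ELF3) to 0.08 (SOX9) in sg2 and from -0.04 (ELF3) to 0.13 (FOXA2) in sg3. These single-guide differences were loosely bounded: 0 of 8 factors in sg1, 0 in sg2 and 1 in sg3 had an interval inside 1.1-fold, against 5.87%, 7.58% and 6.05% of genes at 10 CPM or more. ELF3 in sg2 had a ratio interval from 0.7215 to 1.18, and its SE of 0.16 became 0.054 with the replicate block. FOXA2 in sg3 was at 13.8 and 13.6 CPM, and in its other 8 libraries between 11.6 and 13.1 CPM. It was singled out after the values were seen, and how many genes show such an order was not counted. The FOXA2 difference in sg3 had SE 0.07, with an unadjusted p of 0.1024 and an adjusted p of 1 in edgeR. The guide lines share the NTC libraries as their control, so these values are not independent of each other.

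The 2 control lines give the scale of such differences. Between NTC2 and NTC1 the 8 factors differed by -0.04 (HNF4A) to 0.09 (FOXA2) on the log2 scale, and 0 of 8 were called, as were 0% of all genes (282 at an unadjusted p under 0.05, none of them a factor; DESeq2 called 2 genes). An F test of a difference among sg1, sg2 and sg3 also called 0 of 8 and 0% of genes (226 genes at an unadjusted p under 0.05, again no factor). With the letter as a replicate block these comparisons called 2 and 8 genes, no factor among them. FOXA2 had the smallest p of the 8 there, 0.179 unadjusted and 1 adjusted in edgeR.

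**Figure D2:**
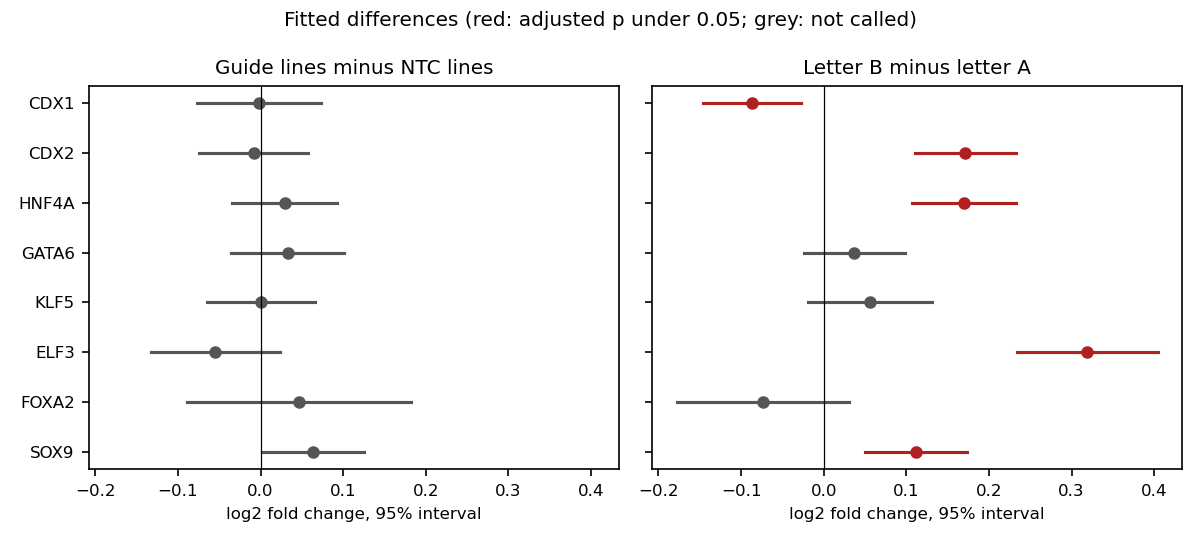
Fitted log2 fold change (horizontal axis) with its 95% interval for each factor, guide lines against NTC lines on the left and B against A libraries on the right; red marks an adjusted p under 0.05. The 8 intervals on the left reach from -0.13 to 0.18, and 5 factors are red on the right.

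More of these factors were called between letters than between arms. In a paired fit with a term for the line, 4 of 8 factors were higher in B, where 14.6% of 16411 genes were, and 1 was lower, where 15% of genes were. The letter marks a difference between libraries that reached 29.5% of all genes in either direction. Since the labels do not say what distinguishes A from B, its source was not tested.

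ELF3, the ETS factor, had the largest difference of the 8. Its A libraries read 58.5, 63.5, 64.9, 60.1 and 65.2 CPM in NTC1, NTC2, sg1, sg2 and sg3, and its B libraries 82.9, 81.5, 78.4, 72.0 and 74.6 CPM. Every B library was above every A library, as in 9.65% of genes (9.59% had every B library below). The log2 difference was 0.32 (SE 0.04, adjusted p 7.894e-05), higher in B in 5 of 5 lines.

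CDX2 and HNF4A had closely similar differences. CDX2 read 146, 149.7, 149, 147 and 150.4 CPM in the A libraries of NTC1, NTC2, sg1, sg2 and sg3, and 167, 170.5, 156.5, 167 and 174 CPM in the B libraries. HNF4A read 166, 168, 174, 173 and 173 CPM in A and 197, 185, 183, 195 and 199.6 CPM in B. Neither factor overlapped between letters, and for both the smallest difference was in sg1, which also had the smallest median letter difference over all 9527 genes (0.0807 on the log2 scale, against 0.0956 to 0.1219 in the other lines). The fitted log2 difference was 0.17 for CDX2 (SE 0.03, adjusted p 0.0005982) and 0.17 for HNF4A (SE 0.03, adjusted p 0.0007452).

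SOX9 was also higher in B, by 0.11 (SE 0.03, adjusted p 0.009387), at 372 ± 13.6 CPM in A and 402 ± 16.2 CPM in B (SD, n = 5), with overlapping groups. It was higher in 5 of 5 lines, but without sg3 the call was lost (log2 difference 0.10, adjusted p 0.0638). CDX1 went the other way. It read 231, 246, 233, 225 and 237 CPM in the A libraries of NTC1, NTC2, sg1, sg2 and sg3, and 213, 223, 234, 211 and 223 CPM in the B libraries. Every line but sg1 was lower in B, the groups overlapped, and the log2 difference was -0.09 (SE 0.03, adjusted p 0.02998). That call did not survive leaving out NTC1, NTC2, sg2 or sg3, with adjusted p from 0.0866 to 0.102.

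The remaining 3 factors passed no test between letters. GATA6 was at 63.2 ± 1.55 CPM in A and 64.9 ± 1.59 CPM in B (log2 difference 0.04, adjusted p 0.365). KLF5 was at 293 ± 10.6 CPM in A and 305 ± 14.7 CPM in B (log2 difference 0.06, adjusted p 0.255); without line sg1, whose B library was lower than its A library, the difference became 0.09 with an adjusted p of 0.0404, and without line NTC2 it became 0.02 with an adjusted p of 0.629. FOXA2 was at 13.0 ± 0.497 CPM in A and 12.4 ± 0.810 CPM in B (log2 difference -0.07, adjusted p 0.284), and was lower in B in 5 of 5 lines.

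**Figure D3:**
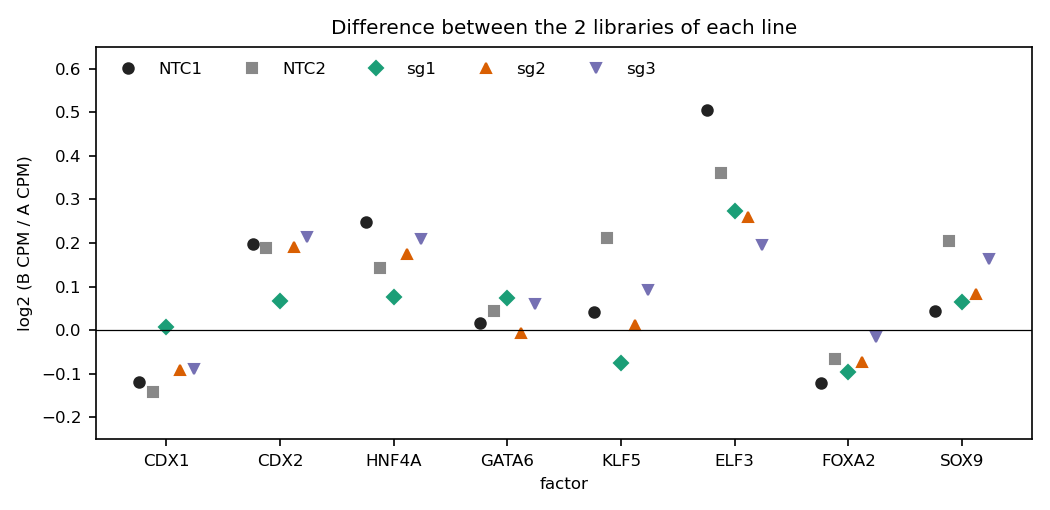
Log2 ratio of B to A CPM (vertical axis) for each factor and line, 1 marker shape per line. ELF3 lies between 0.19 and 0.50, CDX2 and HNF4A are above 0 in every line with sg1 lowest, and CDX1 is below 0 in every line but sg1.

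Whether the letter difference itself differed between arms was tested as an interaction. No factor passed, nor did any of 16411 genes (0%; 941 genes at an unadjusted p under 0.05, ELF3 the only factor among them; DESeq2 called 3 genes, none a factor). ELF3 had a B-to-A log2 ratio of 0.50 and 0.36 in NTC1 and NTC2 and of 0.27, 0.26 and 0.19 in the guide lines. The difference was -0.19 (SE 0.06), with an unadjusted p of 0.01026 and an adjusted p of 0.867 in edgeR. This ELF3 value is the same quantity as its arm difference under B set against that under A. Over 9527 genes at 10 CPM or more, the median absolute log2 letter difference was also larger in the NTC lines. It was 0.12 and 0.1219 in NTC1 and NTC2, and 0.0807, 0.0969 and 0.0956 in sg1, sg2 and sg3.

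The fitted letter differences of CDX1 and CDX2 had opposite signs, although the CDX1 call held in only 8 of 22 alternatives. Their ratio within a library, which no scaling between libraries affects, was therefore taken. CDX2 had 0.609 to 0.651 counts per CDX1 count in the A libraries and 0.668 to 0.792 in the B libraries, without overlap. How many other gene pairs separate in this way was not counted. The log2 ratio was higher in B by 0.32, 0.33, 0.06, 0.28 and 0.30 in NTC1, NTC2, sg1, sg2 and sg3. The mean was 0.26 ± 0.11 (SD, n = 5). HNF4A to CDX1 shifted by 0.26 ± 0.11 and ELF3 to CDX1 by 0.41 ± 0.15, both higher in B in 5 of 5 lines, and SOX9 to KLF5 by 0.06 ± 0.06. These 4 ratios were chosen after the values of their members had been seen, so they restate the letter differences and are given with no test.

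**Figure D4:**
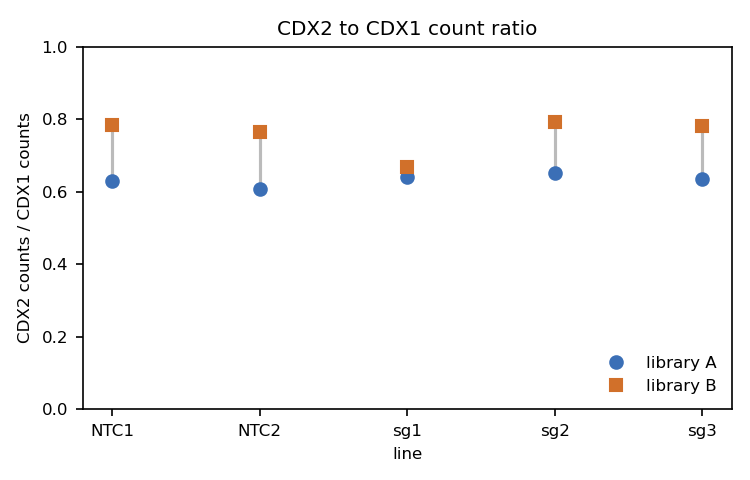
Counts of CDX2 divided by counts of CDX1 (vertical axis, starting at 0) in the A library (circle) and B library (square) of each line, joined by a grey bar. The B value is above the A value in all 5 lines, and sg1 has the shortest bar.

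Across the 10 libraries CDX2 and HNF4A had the highest correlation of any pair of factors, Pearson r 0.93, and r 0.611 once each letter's mean was removed. On those centred values CDX2 and FOXA2 (r 0.71), KLF5 and SOX9 (0.682), CDX2 and KLF5 (0.649) and FOXA2 and SOX9 (0.636) ranked above it. CDX1 and HNF4A had r -0.795, and -0.589 without the letter means. These libraries share lines and letters, so the values are descriptions. Among genes at 10 CPM or more, the best matches over 10 libraries were PRLR (r 0.973) and MYC (0.972) for CDX2, and SCAF4 (0.988) and MYC (0.985) for HNF4A. CDX1 was matched by MRPL36 (0.965) and MRPS18A (0.964), which encode mitochondrial ribosomal proteins, and ELF3 by FAM222A (0.971) and DDX51 (0.968). SOX9 was matched by EPPK1 (0.962) and SPATA33 (0.953), KLF5 by NFE2L3 (0.982) and CIR1 (0.927), GATA6 by PPM1G (0.909) and NOMO2 (0.883), and FOXA2 by PGM1 (0.874). These are among the 2 best matches per factor of 9526 genes searched.

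FOXA2 shares exons with AL121722.1, a gene model on the same strand (chromosome 20, 22560553 to 22584261), so RSEM had to divide reads between both. FOXA2 was given 458 to 589 counts per library, while AL121722.1 was given 149 and 0 counts in NTC1 A and B, 177 and 76 in NTC2, 113 and 89 in sg1, 65 and 196 in sg2, and 92 and 166 in sg3. These counts did not follow arm or letter. With both summed, chosen as an alternative after the counts had been seen, the log2 difference between arms was 0.09 and between letters -0.10, and neither was called. The kit does not mark strand, and exons of ELF3-AS1 (91 to 135 counts) and GATA6-AS1 (18 to 39 counts) overlap ELF3 and GATA6 on the opposite strand. The deposited counts of both antisense genes were whole numbers in every library, unlike those of AL121722.1, such as 148.87 in NTC1 A. How reads over exons shared with an antisense gene were assigned was not tested.

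**Figure D5:**
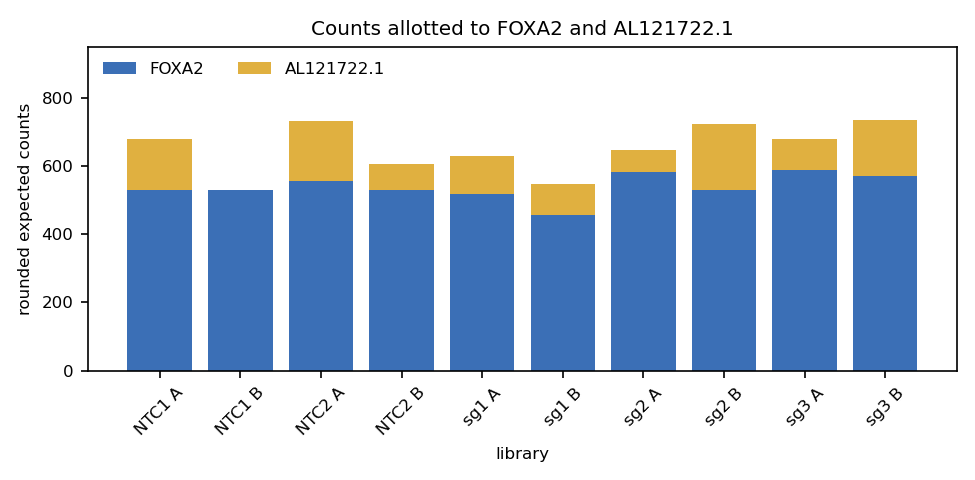
Rounded expected counts (vertical axis, starting at 0) given to FOXA2 and, stacked on top, to the overlapping AL121722.1 in each library. FOXA2 stays between 458 and 589 counts while AL121722.1 runs from 0 to 196.

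Other gut regulators and their target genes gave no call between arms either. Of 25 other gut endoderm transcription factors, 23 were tested and 0 were called between guide and NTC lines, with a median log2 difference of -0.01 against 0.00 for all tested genes. The most abundant per kb were EHF, an ETS relative of ELF3 (-0.08), ESRRA (0.03) and VDR (0.08). Of 25 genes described as bound or driven by CDX or HNF4A, 17 were tested and 0 called, with a median of 0.01 and a range from -0.30 to 0.45. The most abundant were LGALS4 (0.01), PHGR1 (0.09) and GPA33 (0.07). MUC2, the goblet cell mucin, was at -0.30 (SE 0.06, adjusted p 0.184) and CLDN2, a tight junction protein, at 0.16 (SE 0.04, adjusted p 0.258); both were singled out after their values were seen, and both also differed between letters. Posterior HOX genes (8 of 15 tested) and lineage factors of other tissues (9 of 18 tested) also gave 0 calls, with medians of -0.01 and 0.07.

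Between letters, 9 of 21 tested gut factors were higher in B and 1 was lower, beside 14.6% and 15% of all tested genes, with a median log2 difference of 0.07 against 0.00 for all genes. On that log2 scale HNF4G, the paralog of HNF4A, was higher by 0.19 (SE 0.04, adjusted p 0.002301) and FOXA1, the paralog of FOXA2, by 0.15. GRHL2, ONECUT2, KLF3 and VDR were higher by 0.09 to 0.20, ISX, at a mean of 1.75 CPM, by 0.71, and ESRRA fell by 0.08. Of the CDX and HNF4A genes, 6 of 17 were higher in B and 3 were lower, the latter near the share of all genes. MUC2 was higher by 0.65, KRT20 by 0.41, ABCB1 by 0.27, MTTP by 0.18, VIL1, a brush border protein, by 0.16 and MUC13 by 0.10. CLDN2 was lower (-0.29), as were GPA33 (-0.21) and CDH17, an intestinal cadherin (-0.14). The list therefore held calls in both directions, as the factors did. Of the 8 posterior HOX genes tested, HOXB13 was the only call, at -0.26, which is near the 15% of all genes, and of 9 tested lineage factors of other tissues TFAP2A (0.28) and GATA2 (0.20) were higher, beside 14.6% of all genes. Epithelial keratins KRT8 and KRT18 were each lower in B (-0.38), and markers of colorectal epithelium summed to 7295 to 7503 CPM in A and 5934 to 6876 CPM in B; their part in the factors' letter difference was not tested. The fibroblast marker LUM, at 1.23 CPM, was lower in B (-0.63).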

How the data were processed

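The deposited values are expected counts per gene, made by the authors with RSEM per the table's name. Per the submitters' processing notes, CASAVA 1.8.2, TopHat2 2.0.8, FastQC 0.11.2 and build hg38 were used, with roles and annotation not given in the sources used here. Of the deposited values, 7.12% were not whole; counts were rounded, moving none by more than 0.5. Positions and exon lengths come from GENCODE 29 (58597 identifiers matched) and promoters from RefSeq. Tests used edgeR 4.0.16 in R 4.3.3 (quasi-likelihood, TMM, filterByExpr, two-sided, adjusted p over all tested genes, threshold 0.05), with summed counts per line between arms and all 10 libraries otherwise. Scripts were tested on simulated data. Same-letter libraries deviated together in all 10 pairs of lines (r 0.482 to 0.779), so the letter pairs them. Alternatives were DESeq2 1.42.0, upper quartile scaling, no filter, the letter as a block, GC offsets, single letters, and leaving out lines or libraries. Named genes are the 8 factors, RNASE1, list members past the threshold or among the 3 most abundant per kb, overlapping genes, and the 2 best-correlated genes per factor. A few genes that this rule names are not reported here. Members and lists were chosen with earlier results of these data known. Intervals cover counting error and the spread as fitted.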

Additional observations from a re-analysis of the deposited data

Results flagged for a closer look

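Of 32 sets of 4 to 6 libraries checked for a single value far from the rest, 2 were marked, where chance marks about 1 in 20. GATA6 in the B library of NTC1 was at 62.07 CPM, below the other 4 B libraries, which lay between 65.3 and 66.0 CPM. KLF5 in the A library of NTC2 was at 274.4 CPM, below the other 4 A libraries, which lay between 297 and 299.95 CPM. Neither value changed a call between arms.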

How the results depend on the processing

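No factor was called between arms, for any guide or between NTC lines under any alternative run, and CDX2, HNF4A and ELF3 kept their calls between letters under all 22. Signs near 0 were unstable between arms: CDX2 became 0.01 in A libraries alone, without line NTC2 and without line sg1, ELF3 became 0.05 in A libraries alone, and GATA6 -0.01 with GC offsets and the letter as a replicate block. With that replicate block alone SOX9 stayed at 0.06 (edgeR adjusted p 0.5045), and the block changed no factor's call. Between arms, the block fit took the 10 libraries as units without a term for the line. It thus counted libraries A and B of a line as separate replicates, which they may not be. The 5 calls between letters became 3 without line sg3 or in NTC lines alone, and 3 to 6 on leaving out 1 library; the cause was not tested. Leaving out 1 library each also turned signs, over these ranges: between arms -0.06 to 0.04 for CDX2, -0.03 to 0.09 for HNF4A and -0.17 to 0.07 for ELF3; in sg1 -0.07 to 0.06 for HNF4A, -0.01 to 0.06 for GATA6, -0.09 to 0.01 for FOXA2 and -0.03 to 0.07 for SOX9; in sg2 -0.11 to 0.08 for CDX2, -0.05 to 0.13 for HNF4A, -0.04 to 0.06 for KLF5, -0.26 to 0.02 for ELF3 and -0.01 to 0.06 for FOXA2; in sg3 -0.03 to 0.06 for CDX1, -0.07 to 0.14 for CDX2, -0.05 to 0.16 for HNF4A, -0.01 to 0.05 for GATA6, -0.01 to 0.09 for KLF5 and -0.15 to 0.10 for ELF3; and in NTC2 against NTC1 -0.06 to 0.13 for CDX2, -0.16 to 0.09 for HNF4A, -0.14 to 0.07 for KLF5 and -0.20 to 0.31 for ELF3. These leave-one-out fits had no term for the letter and left 1 line with a single letter, so the ranges include the letter difference. Values that round to 0.00 were given no sign. Over all genes, the calls between arms were 4, against 59 with DESeq2, 252 with no filter, 7 with upper quartile scaling or GC offsets, 2 with the block, 11 in A alone and 3 in B alone, 5 to 27 without 1 line and 1 to 12 without 1 library. Each guide's single call became 69 to 95 with no filter, 4 with DESeq2 and 2 to 6 with the block, and sg2's became 0 without its A library. With no filter 57 genes were called between NTC lines 141 among guides and 101 for the interaction of letter and arm, with the block 2 and 8 for the first 2 of these. The letter's 4848 calls became 3293 in NTC lines and 2641 in guide lines alone. Between arms and between letters FOXA2, at 458 to 589 counts, had the largest SE of the 8.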
